A study of Mus musculus with 8 samples.

Results

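Programmed cell death by apoptosis is set by a small number of gene families, and their RNA was measured here in the islets of Langerhans of mice on a high fat diet. The list held 48 genes: the Bcl2 family, the caspases, the mitochondrial factors that start caspase activity, the proteins that inhibit caspases, the adaptors of death receptors, and p53 with its partners. A gene's values were taken from all probe sets (the groups of oligonucleotides that report 1 transcript) annotated to that gene and to no other. Of the 48 genes 39 were measured, among 12233 genes in all, by 83 of 25414 probe sets kept after a filter on low values. Of the remaining genes 4 (Hrk, Casp1, Casp4 and Ripk3) had probe sets under the filter, 2 (Bcl2a1a and Bnip3l) had only probe sets annotated to several genes, and 3 (Bax, Ripk1 and Trp53) were not analysed here. For the contrast of the sides, 10 measured genes were counted as pro-survival, 22 as pro-death and 7 as mixed, where both kinds of action are known or the role does not lie on 1 side.

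HF samples were islet RNA of male C57BL/6J mice given a diet with 45 kcal% fat after weaning at 4 weeks of age, and NC samples were islet RNA of male C57BL/6J mice given regular rodent chow instead. The labels give 12 weeks on either diet, while the methods of the study give a somewhat longer time. All mice carried the deletion in Nnt that this strain has, so neither diet group is a model of animals with an intact Nnt. Each diet had 4 samples (HF21, HF22, HF23 and HF24, then NC1, NC2, NC4 and NC5), each the pooled islets of a pair of mice on 1 array. By the methods of the study, islets were isolated with collagenase and then a Ficoll density gradient. The unit throughout is the GCRMA intensity, a background-adjusted brightness on a linear scale, which orders samples for 1 probe set and does not order genes.

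In the intrinsic pathway, BH3-only proteins bind and block the anti-apoptotic Bcl2 proteins or activate the pore-forming members Bax and Bak1. The pores release cytochrome c from mitochondria, which assembles with Apaf1 and caspase 9 into the apoptosome. In the extrinsic pathway, death receptors recruit Fadd and caspase 8 instead. Both routes end in effector caspases, which the inhibitor of apoptosis proteins hold in check, and loss of beta cells by apoptosis is known in diabetes.

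A gene was called changed at an adjusted p under 0.05 (limma, Benjamini-Hochberg over all 12233 genes) with a fold change of at least 1.5. By that rule 5 of the 39 measured apoptosis genes were lower in HF islets and 0 were higher. The 5 were Bcl2, Bik, Bmf, Pmaip1 and Casp12, of which the first is pro-survival and the other 4 are pro-death. The 5 make 12.8% of the measured list, against 4.82% of all genes called lower, and 0.54% of all genes were called higher. Without the fold limit the lower genes were 7, with Bcl2l1 and Bnip2 added and still 0 higher, against 6.84% of all genes lower and 2.18% higher. At an unadjusted p under 0.05, in either direction, there were 18 of the 39 (46.2%), against 23.1% of all genes. By probe set, 6 of 83 were lower and 0 higher (3.08% of all retained probe sets were called lower). In RNA of whole islets, fewer cells of a type and less RNA per cell cannot be told apart, and all 10 measured fibroblast and stellate cell markers were lower in the same HF samples.

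Separation of the samples gave a wider set than the calls. In 9 genes every HF sample lay below every NC sample (Bcl2, Bcl2l1, Mcl1, Bik, Bmf, Pmaip1, Bnip2, Casp12 and Xiap), which is 23.1% of the measured list, against 10.4% of all genes. In 4 genes (Bcl2l2, Mdm2, Parp1 and Cycs) the HF samples all exceeded the NC samples, 10.3% of the list against 5.78% of all genes. For each of these 13 genes the exact two-sided permutation test gave 0.0286, the smallest p that 4 samples against 4 allow. That value follows from the separation by which the genes were picked, so it adds no support. The median log2 fold change, HF minus NC, was -0.08 over the 39 genes and 0.00 over all genes, and the log2 fold changes ran from -1.17 in Casp12 to 0.27 in Endog.

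**Figure D1:**
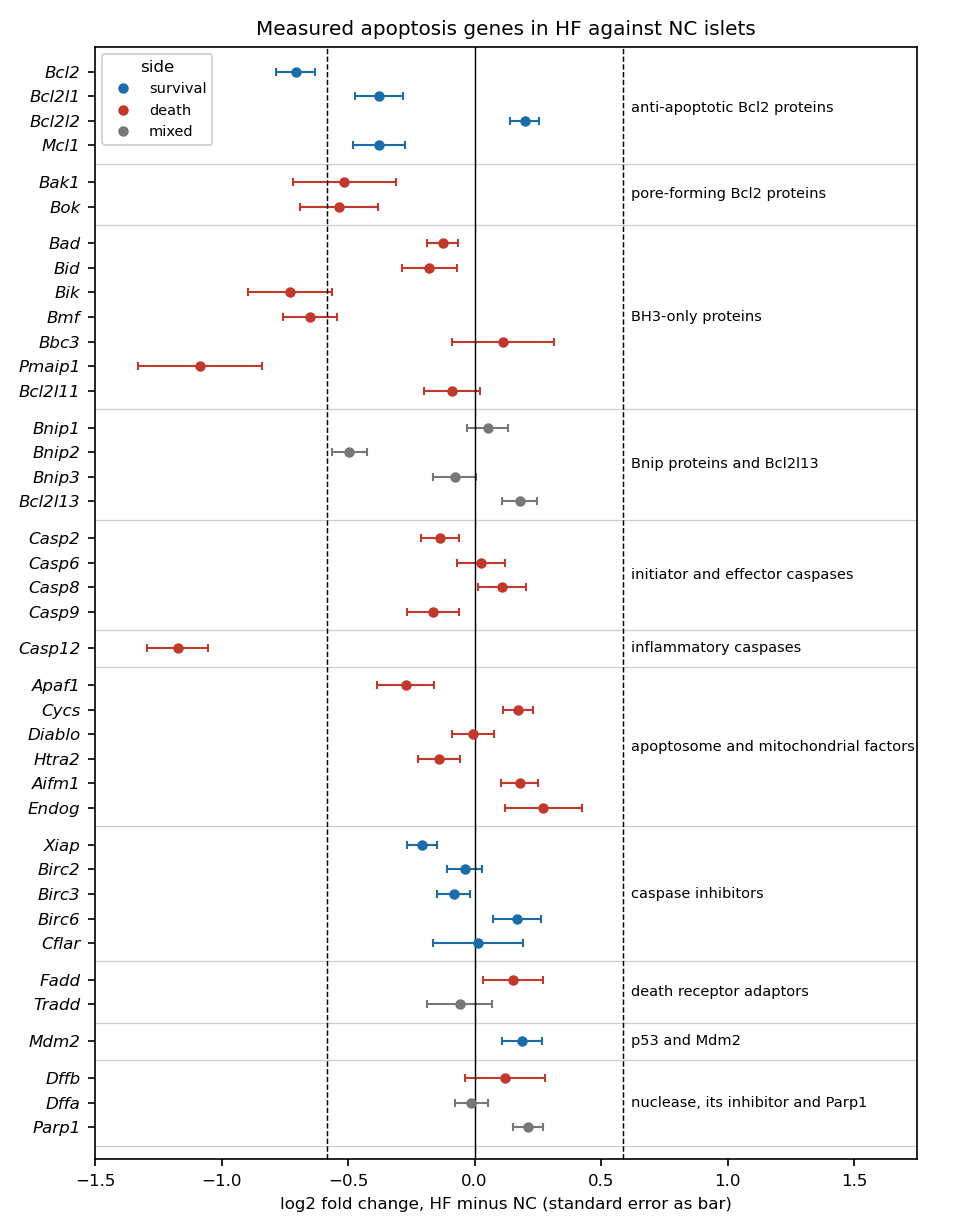
Log2 fold change, HF minus NC, of the 39 measured apoptosis genes (points) with the standard error of limma (bars), grouped by role and coloured by side; dashed lines mark the fold limit of 1.5. Casp12 and Pmaip1 lie farthest to the left at -1.17 and -1.08, Bcl2, Bik and Bmf lie beyond the left line, and no gene reaches the right line.

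The promoters of the genes called lower are shown as a description, and shared control of these genes was not tested. RefSeq holds 3 of the 5 in the promoter table used (GRCm38.p6, 250 bases before to 50 after the transcript start), and Bik and Pmaip1 are named only. They are given 5′ to 3′ on the gene's strand, with capitals marking the GC box (GGGCGG) and the CCAAT box (CCAAT), searched on both strands, with no overlap between matches.
Bcl2: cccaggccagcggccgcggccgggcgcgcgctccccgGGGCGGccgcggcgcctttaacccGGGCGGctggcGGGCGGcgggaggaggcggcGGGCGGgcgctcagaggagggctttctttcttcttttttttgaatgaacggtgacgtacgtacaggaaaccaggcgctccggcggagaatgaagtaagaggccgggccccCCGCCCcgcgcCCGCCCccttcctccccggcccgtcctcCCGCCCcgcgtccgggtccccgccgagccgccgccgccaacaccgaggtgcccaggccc
Bmf: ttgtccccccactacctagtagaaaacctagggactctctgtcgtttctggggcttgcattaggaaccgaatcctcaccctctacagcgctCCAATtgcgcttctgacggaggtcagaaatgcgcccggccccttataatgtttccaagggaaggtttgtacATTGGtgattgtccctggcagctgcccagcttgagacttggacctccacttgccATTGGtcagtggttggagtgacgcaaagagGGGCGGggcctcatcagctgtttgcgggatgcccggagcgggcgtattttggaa
Casp12: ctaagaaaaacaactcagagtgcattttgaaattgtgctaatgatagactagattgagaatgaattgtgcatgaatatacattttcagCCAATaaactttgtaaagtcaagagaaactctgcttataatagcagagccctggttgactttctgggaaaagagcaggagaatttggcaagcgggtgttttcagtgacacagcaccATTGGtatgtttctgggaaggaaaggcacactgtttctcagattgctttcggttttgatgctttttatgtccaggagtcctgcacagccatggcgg
The Bcl2 stretch lies at chr1:106714241-106714540 on the minus strand, the Bmf stretch at chr2:118549637-118549936 on the minus strand and the Casp12 stretch at chr9:5345226-5345525 on the plus strand. For Bmf the table lists 3 starts, and the one at the 5′ end of the gene is shown. The single Casp12 start in the table lies 34 bases downstream of the annotated 5′ end of the gene. The Bcl2 promoter is 76% G and C with 44 CpG sites, a richer base composition than 96.9% of the 32851 promoters in the table. It holds 7 GC boxes and 0 CCAAT boxes. Bmf is at 55.3% G and C with 13 CpG sites, 1 GC box and 3 CCAAT boxes. The Casp12 stretch is at 41% G and C, with 3 CpG sites, 0 GC boxes and 2 CCAAT boxes, and only 12.1% of promoters have less G and C. A GC box is found in 35.7% of all promoters of this length and a CCAAT box in 37.4%, and the median promoter is 52.7% G and C with 7 CpG sites. Of these motifs neither was found in all 3 stretches. A match is a description of the letters and not of a bound factor.

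Bcl2, the founding anti-apoptotic member, which holds the pore-forming proteins inactive, was lower in HF islets. On its brightest probe set it had intensities of 138, 149.9, 148 and 152 in HF21, HF22, HF23 and HF24, against 261, 245, 207 and 247 in NC1, NC2, NC4 and NC5. The HF samples lay close together and all below the lowest NC sample. The means were 147 ± 6.24 in HF and 240.2 ± 22.9 in NC (SD, n = 4 each), which is -0.71 on the log2 scale with a standard error of 0.08 and an adjusted p of 0.00154. A dimmer Bcl2 probe set fell short of the call, with -0.83 on the log2 scale (adjusted p = 0.081), again with no overlap between the diets, at 15.8, 9.74, 17.2 and 11.1 in the HF samples and 24.5, 32.2, 19.8 and 18.8 in the NC samples. The third retained probe set of Bcl2 was at 14.2 to 14.8 in HF and 14.2 to 18.4 in NC, with a log2 fold change of -0.07. When the 3 retained probe sets were averaged, Bcl2 was at -0.53 on the log2 scale (adjusted p = 0.0066), under the fold limit.

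The other anti-apoptotic proteins did not move as 1 block. Bcl2l1, which encodes Bcl-xL, had 417, 422, 439 and 371 in the HF samples, against 473, 496, 598 and 582 in the NC samples. The groups did not overlap, and the log2 fold change of -0.38 (standard error 0.09) had an adjusted p of 0.0429 over genes and 0.0581 over probe sets, short of the fold limit in both. Its other 2 retained probe sets had log2 fold changes of -0.04 and -0.08. Mcl1, a short-lived protein that guards against Bak1, had 4364, 5058, 4921 and 4010.0 in the HF samples and 6926, 5634, 5452 and 5854 in the NC samples. Here too every HF sample was below every NC sample, but the adjusted p was 0.0561, at -0.38 on the log2 scale (standard error 0.10). All 6 retained Mcl1 probe sets had negative log2 fold changes, between -0.38 and -0.20, and none passed the test. The 6 share 1 transcript and are not independent readings. Bcl2l2, which encodes Bcl-w, stood on the opposite side, with every HF sample above every NC sample on both of its retained probe sets. Their log2 fold changes were 0.20 and 0.45, and neither passed the test (adjusted p = 0.0668 over genes for the brighter). So 1 of the 4 measured anti-apoptotic genes was called, 3 lay below and 1 lay above their NC values in every sample.

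**Figure D2:**
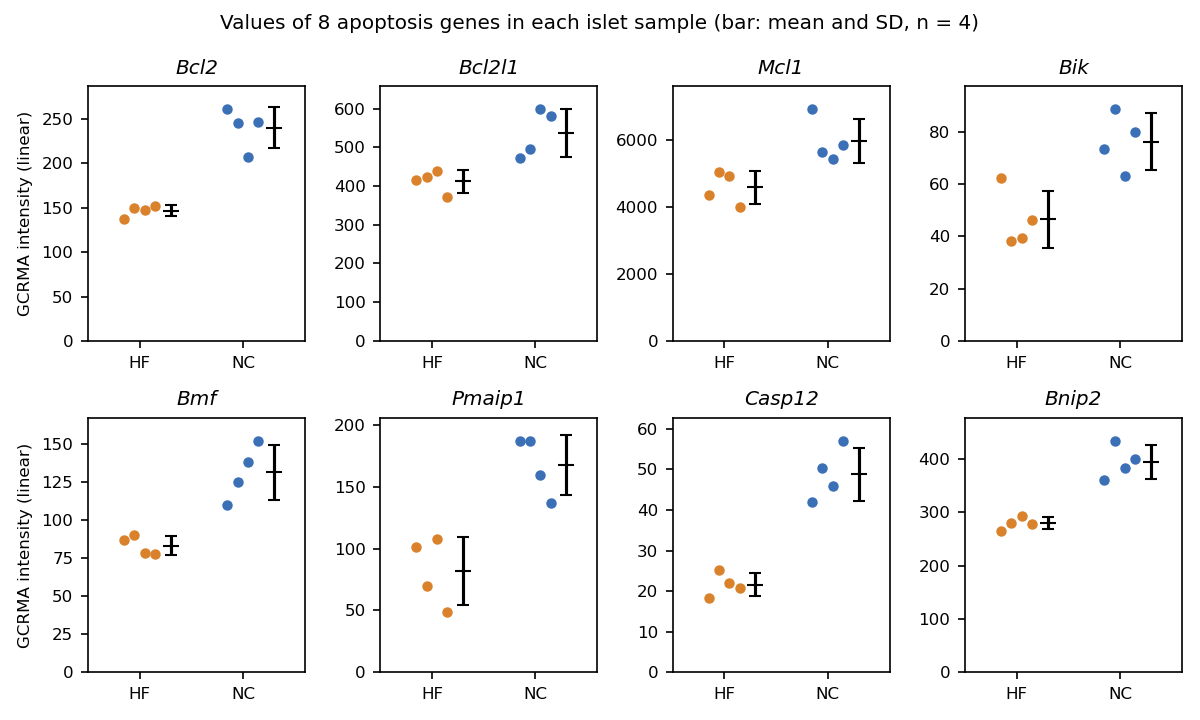
GCRMA intensity on a linear axis in each HF and NC sample (points) for 8 apoptosis genes, with the mean and SD of the 4 samples of a diet as a bar. In all 8 panels the highest HF sample lies below the lowest NC sample; the closest approach is in Bik, at 62.2 in HF21 and 63.0 in NC4.

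Bak1 and Bok, the pore-forming proteins that were measured, were not called. Bak1 had 48.1, 38.1, 74.5 and 50.7 in the HF samples and 75.7, 92.1, 64.6 and 64.0 in the NC samples, and HF23 lay inside the NC range. Its log2 fold change was -0.52 with a standard error of 0.20 and an adjusted p of 0.175. Bok, described here after its values were seen, had 53.4, 41.8, 53.7 and 46.4 in the HF samples and 75.2, 77.5, 51.4 and 82.0 in the NC samples, with NC4 among the HF values. The log2 fold change was -0.54 with a standard error of 0.16 and an adjusted p of 0.0721. For each gene 7 of the 8 fits that left out 1 sample also made no call. The log2 fold change was as small as -0.37 for Bak1 and -0.46 for Bok. The adjusted p went up to 0.329 for Bak1 and 0.168 for Bok. The exceptions were Bak1 without HF23, at -0.69 with an adjusted p of 0.0381, and Bok without NC4, at -0.69 (adjusted p = 0.00765). Bax was not analysed here.

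Of the 7 measured BH3-only genes, which sense stress and set off the pathway, 3 were lower and 4 did not pass the test. The most lowered was Pmaip1, known as Noxa, a p53 target whose protein binds Mcl1. It had 101, 69.98, 108 and 49.2 in the HF samples, against 187, 187, 159 and 136 in the NC samples. The HF samples spread more widely than the NC samples on a ratio scale, and the groups did not overlap. The means were 82.0 ± 27.4 in HF and 167 ± 24.5 in NC (SD, n = 4 each), with a log2 fold change of -1.08, a standard error of 0.24 and an adjusted p of 0.0292. This call did not hold at an adjusted p under 0.05 without NC1 (0.0774), NC2 (0.0803), NC4 (0.0606) or HF22 (0.0713). In each of those fits the log2 fold change was between -1.11 and -1.03.

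Bmf, a BH3-only protein known for its tie to death after detachment, had 87.0, 89.9, 78.2 and 77.5 in the HF samples. The NC samples had 109.8, 125, 138 and 152. With no overlap, the log2 fold change was -0.65 (standard error 0.11) and the adjusted p 0.00739. Without NC5 the adjusted p was 0.0166 and the log2 fold change -0.577, short of the fold limit, which is 0.585 in size on this scale. Bik, a BH3-only protein of the endoplasmic reticulum, had 62.2, 38.3, 39.6 and 46.2 in the HF samples and 73.7, 88.7, 63.0 and 79.9 in the NC samples. HF21 and NC4 nearly met, and the log2 fold change of -0.73 had a standard error of 0.17 and an adjusted p of 0.031. The call was lost without NC1, NC2, NC5, HF22, HF23 or HF24, with adjusted p between 0.069 and 0.0827. Both dimmer Bik probe sets had small log2 fold changes, -0.10 and -0.21, and on those NC1 stood highest, at 30.5 and 24.9.

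The 4 other BH3-only genes gave log2 fold changes between -0.18 and 0.11 on the probe sets that stood for them. Bad, whose protein is switched off by phosphorylation downstream of growth factors, had 361, 329.5, 371 and 367 in the HF samples and 401, 399.7, 363 and 394 in the NC samples, with a log2 fold change of -0.13. Bid, the link that caspase 8 cleaves between the pathways, was at -0.18. Bbc3, known as Puma and, like Pmaip1, a p53 target, was at 0.11. Bcl2l11, known as Bim, was at -0.09 on the probe set that stood for it, and its 4 retained probe sets ran from -0.36 to 0.24 without any passing. Hrk was under the filter, at 4.17 to 5.37 in the HF samples and 4.25 to 5.30 in the NC samples over both of its probe sets.

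Among the Bnip genes and Bcl2l13, whose proteins bind Bcl2 family members and serve other roles such as the removal of mitochondria, none of 4 met the call. Bnip2 came nearest, with 265, 281, 292 and 279 in the HF samples and 359.9, 434, 383 and 400.4 in the NC samples. Every HF sample was lower than every NC sample, with a log2 fold change of -0.50 (standard error 0.07) and an adjusted p of 0.00368, so only the fold limit kept it out. All 3 retained Bnip2 probe sets separated the diets, with log2 fold changes of -0.50, -0.38 and -0.21. Bnip3, a mitophagy receptor induced by low oxygen, had 3150.3, 3605, 3733 and 3059 in the HF samples and 3298, 3935, 3549 and 3503 in the NC samples. These overlapped, at a log2 fold change of -0.08. Bnip1 was at 0.05 and Bcl2l13 at 0.18.

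The caspases that carry out apoptosis differed little between the diets. Casp8, the initiator at death receptors, had 352, 385, 416 and 363 in the HF samples and 347, 408, 309 and 347 in the NC samples, which overlapped, at 0.11 on the log2 scale (adjusted p = 0.563). The initiators Casp2 and Casp9 were at -0.14 and -0.17, and the effector Casp6 at 0.03. The log2 fold changes of these 4 lay between -0.17 and 0.11, and none was called.

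Casp12 differed from them. It belongs to the inflammatory caspases, and in the mouse its protein sits at the endoplasmic reticulum. Casp12 had 18.4, 25.2, 22.04 and 20.8 in the HF samples, against 41.9, 50.4, 45.8 and 57.1 in the NC samples. The diets lay far apart, with means of 21.6 ± 2.81 in HF and 48.8 ± 6.52 in NC (SD, n = 4 each). The log2 fold change was -1.17 with a standard error of 0.12 and an adjusted p of 0.00115. A second probe set had 9.22, 9.78, 8.96 and 10.2 in the HF samples and 15.2, 19.2, 14.9 and 30.2 in the NC samples, with an adjusted p of 0.0324 over probe sets at a log2 fold change of -0.998. Both readings of the gene were thus lower in HF, and the HF values of the second were near the filter level of 9. Casp1, the caspase that matures interleukin 1 beta, was under the filter, at 7.99, 8.34, 6.83 and 7.81 in the HF samples and 8.26, 15.6, 8.13 and 9.63 in the NC samples. Casp4 was at 4.26 to 4.45 in HF and 4.30 to 4.45 in NC and Ripk3 at 5.63 to 5.83 in HF and 5.72 to 5.93 in NC, so no change could be read for either at this level.

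The mitochondrial factors showed no calls among 6 genes. Cycs, which encodes cytochrome c and works in respiration as well as in the apoptosome, had 9101, 9500.5, 9055 and 9999 in the HF samples and 8290.0, 8904, 7834 and 8395 in the NC samples. Every HF sample was above every NC sample on all 3 retained probe sets, with log2 fold changes of 0.17, 0.23 and 0.23, but the adjusted p was 0.128 over genes. Apaf1, the scaffold of the apoptosome, was at -0.27. Endog and Aifm1, which act on DNA after leaving mitochondria, were at 0.27 and 0.18, Htra2 at -0.14, and Diablo, which relieves the block by inhibitor of apoptosis proteins, at 0.00. The factors thus lay on both sides of 0.

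Of the 5 caspase inhibitors none was called. Xiap, the direct inhibitor of caspases, had 2332, 2145, 2356 and 2322 in the HF samples and 2559, 2516, 2816 and 2694 in the NC samples. No sample overlapped, yet the adjusted p was 0.0668 at a log2 fold change of -0.21, and its other 3 retained probe sets lay between 0.00 and 0.11. Birc2 and Birc3, ubiquitin ligases of the tumour necrosis factor receptor complex, were at -0.04 and -0.08, and Birc6 at 0.17. Cflar, which encodes the caspase 8 decoy c-FLIP, was at 0.01 with a wide HF spread of 722, 434, 553 and 777, against 644, 658, 553 and 553 in the NC samples. Its probe sets disagreed. One of them, picked out here after its values were seen, had 447, 302, 421 and 441 in the HF samples and 309, 270.1, 279 and 292 in the NC samples, at 0.47 on the log2 scale (adjusted p = 0.0747). Without HF22 that probe set was at 0.60 with an adjusted p of 0.00507, the only higher call among the apoptosis probe sets in any fit that left out 1 sample.

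The remaining genes varied little. Fadd, the adaptor that brings caspase 8 to death receptors, was at 0.15 on the log2 scale, and Tradd, whose adaptor also signals survival, had 255, 247, 199 and 321 in the HF samples and 266, 272, 257 and 254 in the NC samples, at -0.06. Mdm2, the ligase that degrades p53, had 645, 540.1, 517 and 530.5 in the HF samples and 511, 485, 498 and 462 in the NC samples. These did not overlap, but the log2 fold change of 0.19 had an adjusted p of 0.206, and the second retained probe set was at -0.02. Parp1, a DNA repair enzyme that caspases cleave, had 966, 889, 958 and 905 in the HF samples and 777, 856, 758 and 821 in the NC samples, at 0.21 on the log2 scale (adjusted p = 0.0667). Its other 3 retained probe sets lay at 0.01 to 0.02. The nuclease Dffb was at 0.12 and its inhibitor Dffa at -0.01.

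**Figure D3:**
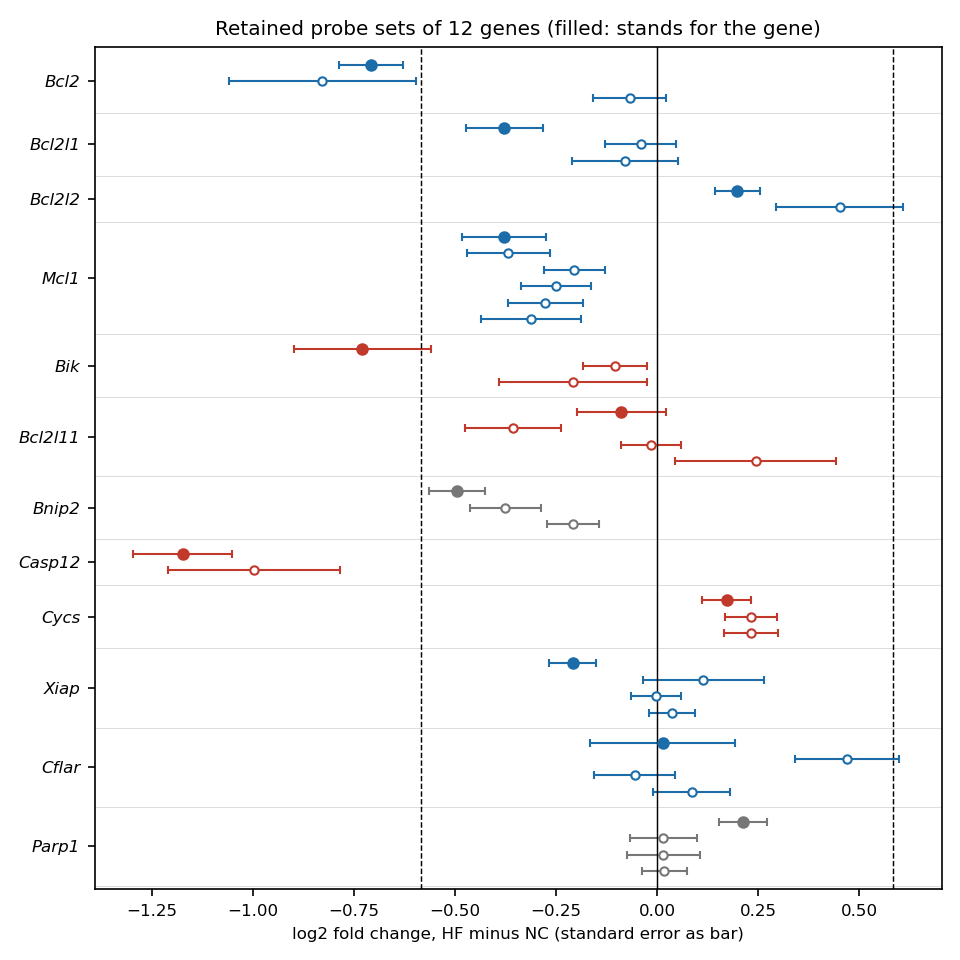
Log2 fold changes (HF minus NC) for every retained probe set of 12 apoptosis genes (points, with the standard error as a bar); the filled point is the probe set that stood for the gene and dashed lines mark the fold limit of 1.5. Both Casp12 probe sets and all 6 Mcl1 probe sets lie on the left, and those of Cycs lie on the right. All Bcl2 and Bik probe sets also lie on the left, at unlike distances, and those of Xiap and Cflar lie on both sides.

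Most genes of the list, 25 of them, had several retained probe sets, though a dim and flat one is a weak check on the others. In the fit over all retained probe sets, 2 probe sets passed for Casp12 and 1 each for Bcl2, Bik, Bmf and Pmaip1, while Bmf and Pmaip1 had no other retained probe set to compare. Where a gene's probe sets differed in size of change, as in Bcl2 and Bik, the part of the transcript each reads was not examined. On the third Bcl2 probe set all samples but NC5 (18.4) lay at 14.2 to 14.8. On the dimmer Bik probe sets all samples but NC1 lay at 24.1 to 25.7 and at 13.9 to 14.2. Whether these flat probe sets detect their transcript was not tested, so they cannot show that the gene is unchanged. The other dim Bcl2 probe set was lower in HF, at -0.83. Taking the mean of a gene's probe sets left 3 called genes, Bmf, Casp12 and Pmaip1. For Bcl2 and Bik that mean includes the flat probe sets.

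The contrast of pro-survival with pro-death genes was made as a description. Of 10 pro-survival genes 1 was lower and 0 higher, 4 lay below and 2 above their NC values in every sample, and the median log2 fold change was -0.06. Among 22 pro-death genes 4 were lower and 0 higher, 4 lay below and 1 above in every sample, and the median log2 fold change was -0.13. Over the 7 mixed genes none was called and the median was -0.01. Which side had the larger share of lower genes turned on the rule. With the fold limit it was 18.2% of the pro-death and 10% of the pro-survival genes, without it 18.2% and 20%, and by separation of all samples 18.2% and 40%, and on the pro-survival side these shares are 1, 2 and 4 genes. Of all genes, 4.82%, 6.84% and 10.4% were lower by the same rules. With the single inflammatory caspase left out the pro-death share was 14.3% by each rule. The pro-death median was then still -0.13, and with the mixed genes added it was -0.08. Whether the sides differ was not tested, since the genes were chosen with earlier results known.

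Set out by sample, both sides averaged lower in HF than in NC islets. The pro-death score (the median over genes of the log2 value relative to each gene's mean) was -0.08, -0.01, -0.06 and -0.06 in HF21, HF22, HF23 and HF24, against 0.08, 0.16, 0.04 and 0.04 in NC1, NC2, NC4 and NC5. The pro-survival score was 0.04, -0.12, -0.05 and -0.02 in the HF samples, against 0.02, 0.07, 0.04 and 0.06 in the NC samples. The diets did not overlap in the first score and did in the second, where HF21 lay within the NC range. The second score rests on fewer genes (10, against 22). No such score was made over all genes, so the separation was not set against a background. The difference, survival minus death, was 0.02 ± 0.10 in HF and -0.03 ± 0.05 in NC (SD, n = 4 each), and ran from -0.11 to 0.13 in HF and from -0.09 to 0.02 in NC. It differed between diets by 0.05, less than the spread between HF samples.

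**Figure D4:**
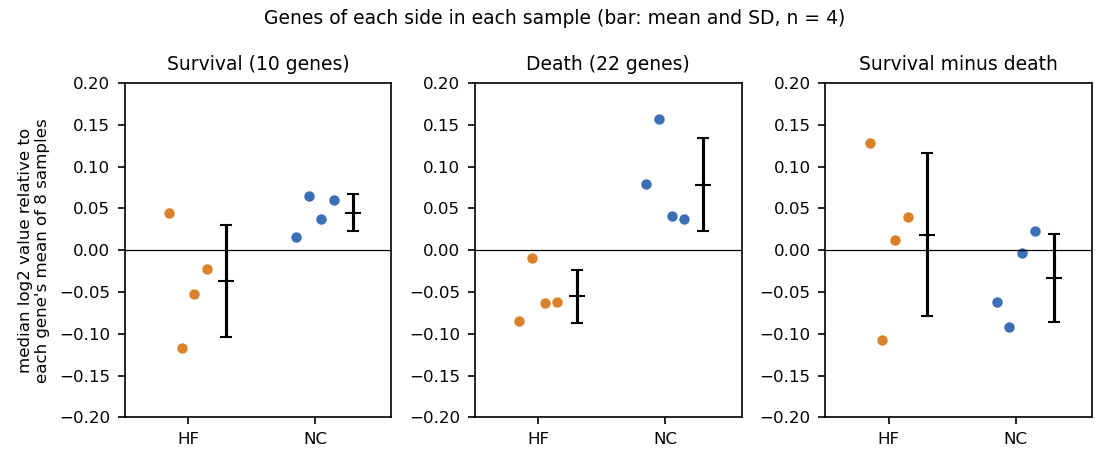
Median log2 value relative to each gene's mean over the 8 samples, for the 10 pro-survival genes, the 22 pro-death genes and their difference, in each HF and NC sample (points), with mean and SD of the 4 samples as a bar. HF samples lie below NC samples for the pro-death genes, while the difference of the sides overlaps between the diets (0.02 ± 0.10 in HF and -0.03 ± 0.05 in NC).

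Genes of neighbouring pathways were read in the same fit. Of 17 measured p53 target genes 0 were called, with a median log2 fold change of -0.03. Sesn1, a stress protein that restrains mTOR signalling, passed the p threshold under the fold limit at -0.55 (adjusted p = 0.0283). Btg2 and Ccng1, an antiproliferative factor and a cyclin of the p53 response, were at 0.15 and 0.11. Pmaip1, also a p53 target, is counted with the BH3-only genes and not in that list. Of 13 ER stress death genes, the nearest pathway to Casp12, 0 were called and the median was -0.06. Txnip, Tmbim6 and Ern1 (an inhibitor of thioredoxin, an inhibitor of Bax at the endoplasmic reticulum and the stress sensor Ire1) were at 0.00, -0.10 and -0.10.

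In the inflammasome and pyroptosis list 1 of 8 measured genes was lower and 0 higher, with a median of -0.47. That gene was Card10 at -1.13 (adjusted p = 0.000838), whose protein is an adaptor to NF-kappa B rather than a part of an inflammasome. Il18, the cytokine that Casp1 matures, and Gsdmd, the pore-forming gasdermin, passed the p threshold under the fold limit, at -0.39 and -0.56. The list of death receptors and necroptosis had 2 of 11 measured genes lower and 0 higher, with a median of -0.18. They were Stk17b, a kinase abundant in lymphocytes, at -1.53 (adjusted p = 0.00116), and Tnfrsf1b, the second receptor of tumour necrosis factor, at -0.92 (adjusted p = 0.0099). Cyld, a deubiquitinase of the same receptor complex, was at 0.02.

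Markers of other cells in the islet preparation also differed between the diets. The summed intensity of 10 fibroblast and stellate cell markers was 3063 to 5261 in HF samples and 13808 to 19668 in NC samples, and all 10 were called lower, with a median log2 fold change of -2.43. For macrophages and monocytes 5 of 12 markers were lower (sum 3611 to 4481 in HF and 5647 to 6637 in NC, median -0.58), for B and plasma cells 3 of 5 (261 to 850.5 in HF and 1458 to 2641 in NC, median -1.87), for endothelial cells 2 of 8 (12823 to 14396 in HF and 16738 to 19443 in NC, median -0.55) and for Schwann cells 3 of 4 (48.3 to 78.2 in HF and 244 to 336 in NC, median -1.66). Of 8 beta cell markers none was called (263796 to 276569 in HF and 249351 to 255257 in NC, median 0.10), and among them were Ins2 at 0.11 and Iapp at 0.10. Alpha, delta and PP cell markers had 1 of 8 lower (292736 to 302084 in HF and 313034 to 316804 in NC, median -0.22), acinar markers 0 of 6 (247570 to 286567 in HF and 230137 to 294662 in NC, median -0.03) and duct markers 1 of 5 (8224 to 10209.7 in HF and 8521 to 10551 in NC, median -0.03). A summed intensity is set mostly by its brightest genes and does not count cells. Of the 8 alpha, delta and PP cell markers 6 had negative log2 fold changes. The called gene was Irx2 at -0.78, while the alpha cell markers Gcg and Ttr were at 0.01 and 0.00. Markers of islet endocrine cells and of acinar cells were thus both present in the samples of both diets. No marker that was measured was at 0, a value that GCRMA does not give. The part of these cells in the values of Bcl2, Bik, Bmf, Pmaip1 and Casp12 was not tested. Scaling each array to its beta cell markers, which lay higher in HF, put all genes lower in HF alike and bears on no cell type; under it Bok joined the 5 called genes at -0.61 (adjusted p = 0.0338).

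**Figure D5:**
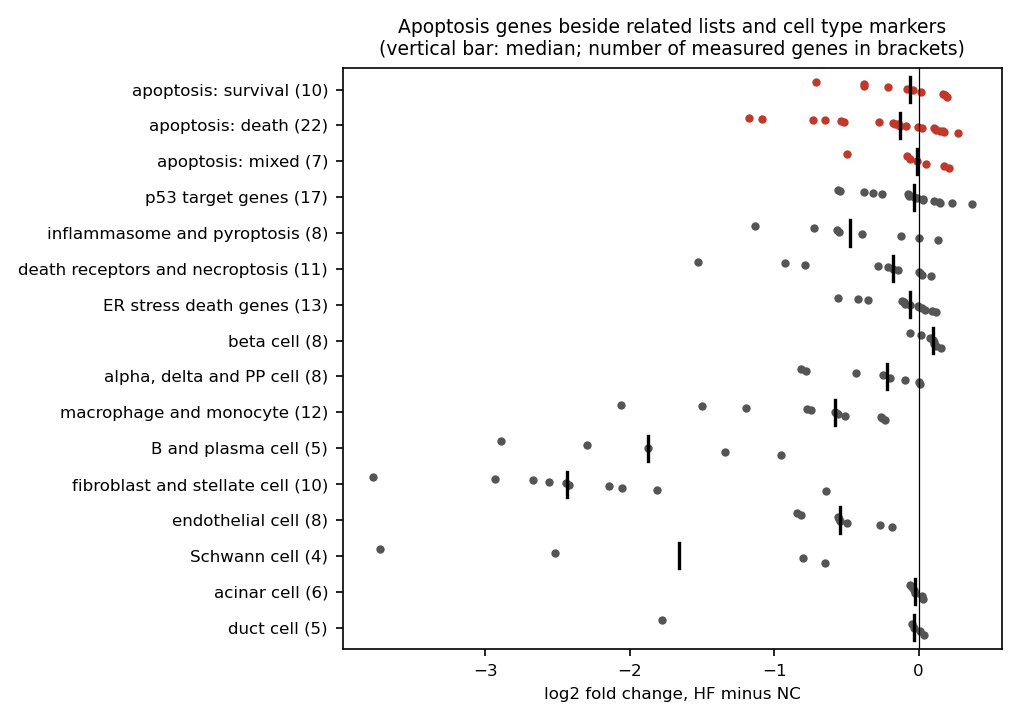
Log2 fold change, HF minus NC, of the measured apoptosis genes by side (upper 3 rows) and of the genes of related pathways and cell type markers, with the median as a vertical bar and the number of measured genes in brackets. The apoptosis medians (-0.06, -0.13 and -0.01) lie near 0, while those of fibroblast, B and plasma cell and Schwann cell markers lie at -2.43, -1.87 and -1.66.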

How the data were processed

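Islet RNA was hybridised to Affymetrix MOE 430v2 arrays, 1 array per sample. Per the labels and the submitters' processing notes, probe set values were computed by the authors from the array images with GCRMA in ArrayAssist Lite 3.4, and the deposited values are intensities on the linear scale, 1 per probe set and sample. No other normalization was applied here before log2. Of 45101 probe sets 34958 were annotated to 1 gene, 932 to several and 9211 to none named here. Probe sets were kept where the third-highest intensity over the 8 samples was at least 9, without regard to diet, in place of present calls, which were not used here. For counts of genes, the retained probe set with the highest mean log2 value stood for the gene. The comparison of HF with NC used lmFit and eBayes of limma 3.58.1, run under R 4.3.3, and Benjamini-Hochberg adjustment over all genes or all retained probe sets, and the script was tested on simulated data. SAM, which the methods name, was not run. Exact permutation tests used the 70 arrangements of the samples. The first principal component held 45.8% of the variance and separated the diets, and correlations between samples were 0.991 to 0.996 within a diet and 0.986 to 0.990 between diets. The number of arrays limits the precision, and p-values measure the spread between pools of mice.

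The genes, lists, sides and tests were chosen with earlier results of these data known. Values by sample are given for genes that passed the adjusted p in either fit and for the gene with the highest mean in each role, and others by log2 fold change, with exceptions named in the text. From each other list up to 3 genes are named, by smallest p among those that passed and otherwise by highest mean. Alternatives were no filter, a filter at 32, quantile normalization, median centring, scaling to beta cell markers, weights per sample, and a robust prior with a trend on intensity. Others were a floor at the filter level, a fold of linear means, no fold limit or one of 1.2, and the mean of a gene's probe sets. The last were an unpaired Student's t-test, which is not the study's array test, and leaving out each sample.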

Additional observations from a re-analysis of the deposited data

Results flagged for a closer look

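Of 78 sets of 4 samples (39 genes in 2 diets), 5 held a sample whose gap to its nearest neighbour, divided by the range, was over Dixon's 95% critical value, which chance exceeds in about 1 set in 20. Xiap had 2145 in HF22, against 2322 to 2356 in the other HF samples. Diablo had 1148 in NC2, while the other NC samples had 948 to 961. For Aifm1 the value in HF22 was 694, above 594 to 609.9 in the other HF samples. Dffa had 223 in HF23, where the rest of the HF samples had 193 to 196. Dffb had 226 in HF22 and 135 to 144 in the other HF samples. HF22 is the sample in 3 of the 5, and none of the 5 genes was called lower or higher.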

How the results depend on the processing

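The direction of every apoptosis gene named as lower was the same under all alternatives, and Casp12 met the call in each of them. The number of lower apoptosis genes was 3 in place of 5 with no filter, with the mean of a gene's probe sets and with the t-test after adjustment. It was 3 to 5 with 1 sample left out. Lower probe sets numbered 3 in place of 6 with no filter and with the adjusted t-test, and 3 to 6 with 1 sample left out, while higher probe sets numbered 0 to 1. Over all genes the adjusted t-test called 356 lower and 32 higher, no fold limit called 267 higher and a limit of 1.2 called 238 higher, and leaving out 1 sample called 41 to 73 higher. Scaling to the beta cell markers put the median of pro-survival genes at -0.14 and of pro-death genes at -0.21, with all genes at -0.08. The pro-death median was -0.059 with the mean of the probe sets and -0.079 with the mixed genes added. Bik lost its call with no filter (adjusted p = 0.0627), the mean of the probe sets (0.0705) and the adjusted t-test (0.0937), and Pmaip1 with no filter (0.0627) and the adjusted t-test (0.0942). The cause of these changes was not tested. No paired analysis was possible because the diets share no replicate numbers. At intensities near the filter level, as on the second Casp12 probe set, small differences could not be detected.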
